A study of Gallus gallus with 5 samples.

Results

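Gene expression was compared between 2 complemented lines of DT40, chicken B cells grown from a tumour of the bursa, the organ in which birds make B cells. Both lines are double knockouts that lack the genes for each form of H2A.Z, a histone variant. The first was complemented with intact H2A.Z.1 (called the H2A.Z.1 line) and the second with the mutant called 5KR-H2A.Z (called the 5KR line). The comparison is that of their arrays, 2 of the 5 in the series. A feature was compared when its signal was well above background, by the scanner software's own flag, on at least 1 of the 2 arrays, which left 30437 of 43603 probes and 4336 of 5382 named genes.

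H2A.Z replaces the core histone H2A in a fraction of nucleosomes, many of them beside transcription start sites and at enhancers. Remodelling complexes of the SWR1 type put it there. Lysines in its N-terminal tail can be acetylated, and acetylated H2A.Z is found mostly at active genes. A lysine-to-arginine replacement keeps the positive charge of the residue but cannot be acetylated. By the usual notation 5KR stands for 5 such replacements, and the N-terminal tail is the part of H2A.Z that the title of the series names. The labels do not say which lysines were replaced.

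The other arrays held wild-type DT40 cells labelled cl18 (WT), the double knockout without a complementing construct (DKO), and the DKO with a further mutant, called H2A-H2A.Z (the H2A-H2A.Z line). Every culture, WT included, was kept for 72 hours in tetracycline at 2 µg/ml, which turns off an H2A.Z.1 transgene that tetracycline represses. Each line was measured once, on 1 one-colour array, so the differences below have neither a replicate check nor a p-value and describe these arrays alone. Whether a complemented line was 1 clone is not given in the labels. Slide 1 held WT, DKO and the H2A.Z.1 line, and slide 2 the 5KR line and the H2A-H2A.Z line, so the construct and the slide cannot be told apart in the comparison described here. The labels of the DKO array conflict, since its description and genotype match those of the H2A.Z.1 line, and it is called DKO after its title.

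All values below are log2 signals relative to the 75th percentile of their array, and a difference of 1 is 2-fold. Levels of different genes come from different probes and are not compared with each other. The array pair was alike in quality, with 30115 of 43803 spots well above background for the H2A.Z.1 line and 29472 for the 5KR line, none saturated, and a median SD of replicate spots of 0.0562 and 0.0649. Of 10 B cell markers 8 were named on the array and all 8 were detected in both lines, with a summed level between 7.16 and 7.50 over the 5 arrays. CD79B and POU2AF1 made up most of the B cell sum, which therefore says little of the other B cell markers. Of 7 T cell markers 5 were named and 4 were detected in both lines, with a summed level between 6.04 and 6.38, and CD4 was not well above background in either. CD3D stood near 6 on every array and made up nearly all of that sum, which therefore does not describe the other T cell markers. CD3E stood at -5.71 in WT, -1.94 in DKO, -2.30 in the H2A.Z.1 line, -3.10 in the 5KR line and -1.82 in the H2A-H2A.Z line, so it was low in WT against the other 4 arrays, and the complemented lines compared here differed by -0.79. Both probes for H2AFZ, the gene of H2A.Z.1, were far below WT in the complemented lines. The first stood at 5.87 in WT, 1.11 in DKO, 0.81 in the H2A.Z.1 line, 1.24 in the 5KR line and 0.92 in the H2A-H2A.Z line. The second stood at 6.17, -0.37, -0.31, -0.20 and -0.46 in the same order. The complemented lines thus differed by 0.43 and 0.11 at these probes. Which part of the transcript they read was not known here, so they do not check the level of either construct.

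Most genes had nearly the same signal in the 2 lines: 3926 of 4336 (90.5%) lay within 1.5-fold. Of the 4336 genes 115 (2.65%) were at least 2-fold apart, 81 (1.87%) higher and 34 (0.784%) lower in the 5KR line. These counts are of measured signal. For 34 of the 81 and 24 of the 34, 1 array was not well above background and the fold is only a bound, which was 2-fold or more for 27 of the 34 and for 5 of the 24. Over all probes, named or not, 1088 of 30437 (3.57%) were apart, 666 (2.19%) higher and 422 (1.39%) lower. The median of all genes was 0.085, and 2833 genes (65.3%) lay above 0. In RNA from whole cultures, fewer cells with a transcript and less of it per cell cannot be told apart.

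Differences of 2-fold were concentrated in dim genes. When genes were split into 4 bins of 1084 by mean signal over the 5 arrays, the dimmest bin held 72 of the genes that were higher (6.64% of the bin) and 32 of those that were lower (2.95%). The next bin held 7 and 2, the third held 2 and 0, and the brightest held none in either direction. The SD across genes was smaller in brighter bins, from 0.72 in the dimmest bin through 0.30 and 0.20 to 0.15 in the brightest. With normexp, a background correction under which dim signals differ less, 17 genes (0.392%) were 2-fold apart, 14 higher (0.323%) and 3 lower (0.0692%). Of the 81 higher and 34 lower genes of the main setting, 13 and 2 were among them.

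**Figure D1:**
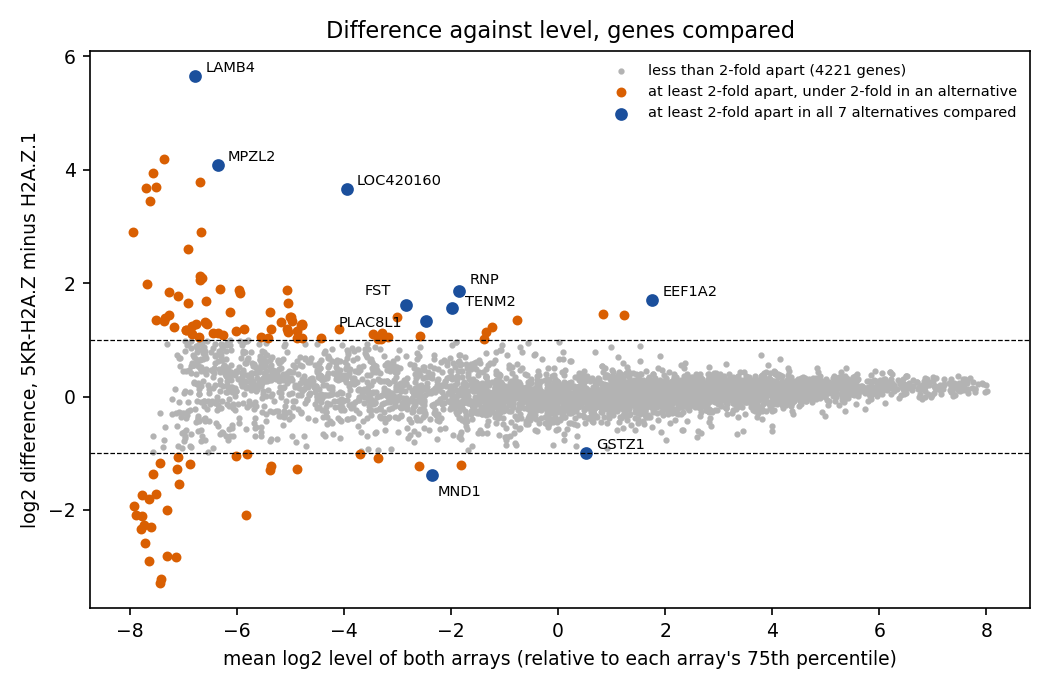
Each point is 1 gene; the x axis gives the mean log2 level of the H2A.Z.1 line and the 5KR line and the y axis the log2 difference between them, with dashed lines at 2-fold. Points spread widely at the left, where signal is dim, and lie close to 0 at the right; the 10 labelled genes were at least 2-fold apart in all 7 alternative scalings, background corrections, value tables and probe choices.

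The split into higher and lower genes also turned on the scaling. The 81 and 34 genes became 65 and 46 with cyclic loess and 51 and 70 when arrays were scaled to their 8 spike-in probes, which moved the median of all genes from 0.085 to -0.175. Just inside the threshold lay SDC4 at 1.01 and GSTZ1 at -1.001, and just outside it TRAIL-LIKE at 0.99 and PNLIPRP1 at -0.99.

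**Figure D2:**
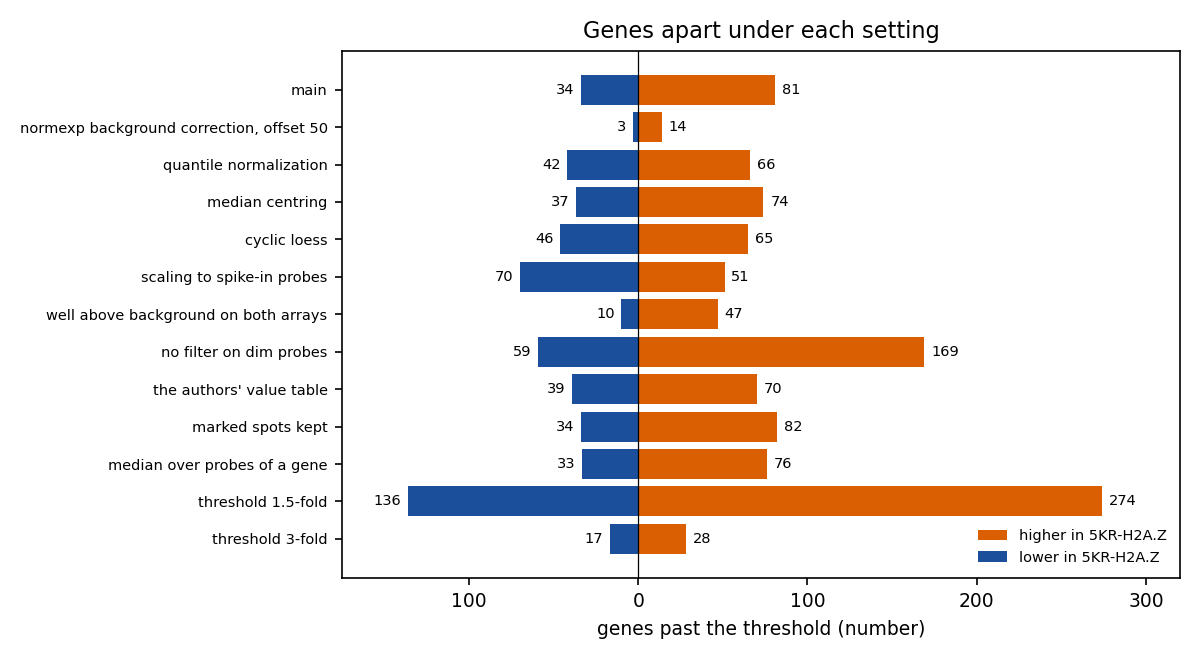
Bars give the number of genes past the threshold, higher in the 5KR line to the right and lower to the left, in the main setting and in each alternative. The bars shrink to 14 and 3 genes with normexp, and scaling to spike-in probes is the one setting shown with more genes lower (70) than higher (51).

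Of the genes that were higher in the 5KR line, the furthest apart was LAMB4, which encodes a laminin beta chain of the basement membrane. It stood at -9.52 in WT, -9.24 in DKO, -9.60 in the H2A.Z.1 line, -3.96 in the 5KR line and -8.02 in the H2A-H2A.Z line, so the 5KR line was high against all 4 other arrays. Its probe was not well above background in the H2A.Z.1 line. The fold is therefore a bound, and LAMB4 was at least 10.99-fold higher in the 5KR line (main scaling; 1.38 on the log2 scale with normexp). A bound is taken against the higher of the gene's own signal and the lowest signal well above background on the dim array, and the bounds below were made the same way. That lowest signal is not a detection limit for each probe. In the 5KR line PYGB at -6.83 was well above background while EPHX2 at -6.54 was not. The words "at least" thus refer to this rule and set no strict limit on the fold.

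MPZL2, which encodes an immunoglobulin-type adhesion protein related to myelin protein zero, was at least 8.55-fold higher. It stood at -4.27 in WT, -9.04 in DKO, -8.40 in the H2A.Z.1 line, -4.32 in the 5KR line and -8.31 in the H2A-H2A.Z line. The 5KR line thus lay at the level of WT, and the 3 other lines were low together. FST, which encodes follistatin, a secreted antagonist of activin, had a similar order, with -1.99 in WT, -3.71 in DKO, -3.64 in the H2A.Z.1 line, -2.03 in the 5KR line and -2.53 in the H2A-H2A.Z line. Its difference between the 5KR line and the H2A.Z.1 line was 1.61.

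RNP differed by 1.87. Its levels were -0.91 in WT, -2.83 in DKO, -2.78 in the H2A.Z.1 line, -0.92 in the 5KR line and -1.53 in the H2A-H2A.Z line. LOC420160, which lies outside the rule for named genes and was chosen after its values were seen, differed by 3.66 with levels of -0.83, -5.44, -5.78, -2.12 and -3.09 in the same order. For FST, RNP and LOC420160, WT and both lines on slide 2 were high while DKO and the H2A.Z.1 line were low.

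EEF1A2, the tissue-restricted form of translation elongation factor 1 alpha, differed by 1.70. It stood at 1.04 in WT, 1.49 in DKO, 0.90 in the H2A.Z.1 line, 2.60 in the 5KR line and 2.13 in the H2A-H2A.Z line, and both of its detected probes were past 2-fold, at 1.38 and 1.70. TENM2, which encodes teneurin 2, a large adhesion protein of neurons, differed by 1.56 and likewise had 2 detected probes, both past 2-fold. Its levels were -0.87 in WT, -1.56 in DKO, -2.75 in the H2A.Z.1 line, -1.20 in the 5KR line and -0.44 in the H2A-H2A.Z line. For both genes the lowest of the 5 arrays was the H2A.Z.1 line. PLAC8L1 differed by 1.34, with -2.44 in WT, -2.63 in DKO, -3.14 in the H2A.Z.1 line, -1.80 in the 5KR line and -2.65 in the H2A-H2A.Z line. Its second detected probe gave 0.93, under 2-fold.

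Other genes that were well above background on both arrays were past 2-fold both in the main setting and with normexp. They were chosen after their values were seen in so far as they fell outside the rule for named genes. SULT1B1, a cytosolic sulfotransferase, differed by 1.44, but its second probe gave 0.43. PCDHA6, a clustered protocadherin of neuronal surfaces, differed by 1.45, IL11RA, the receptor chain for interleukin 11, by 1.36 with a second probe at 0.29, and SOX17, a transcription factor of endoderm and endothelium, by 1.40 with a second probe at 0.45. BSX, a homeobox gene, differed by 1.22. Where probes disagree, which of them reads the transcript was not tested.

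Several further genes were measured in the 5KR line but not well above background in the H2A.Z.1 line, and each was under 2-fold with normexp. CHAT, which makes the neurotransmitter acetylcholine, was at least 6.13-fold higher, with both detected probes past 2-fold. CRIM1, a membrane protein that binds bone morphogenetic proteins, was at least 4.56-fold higher, and GHRHR, the receptor for growth hormone-releasing hormone, at least 4.41-fold. AGRN, which encodes the heparan sulfate proteoglycan agrin, was at least 3.52-fold higher, FOSL2, an AP-1 transcription factor, at least 3.36-fold, and SEMA3D, a secreted guidance protein, at least 2.86-fold. CHAT, CRIM1, GHRHR and SEMA3D were highest in the 5KR line by a wide margin: CHAT stood at -4.80 there and between -8.71 and -7.74 on the other arrays. AGRN was at -5.64 in WT and -5.60 in the 5KR line, and between -9.53 and -9.15 on the rest.

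Both arrays were well above background at the probe read for 47 of the 81 genes that were higher. Of the 81, 16 had more than 1 detected probe, and in 4 of these every detected probe was past 2-fold.

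**Figure D3:**
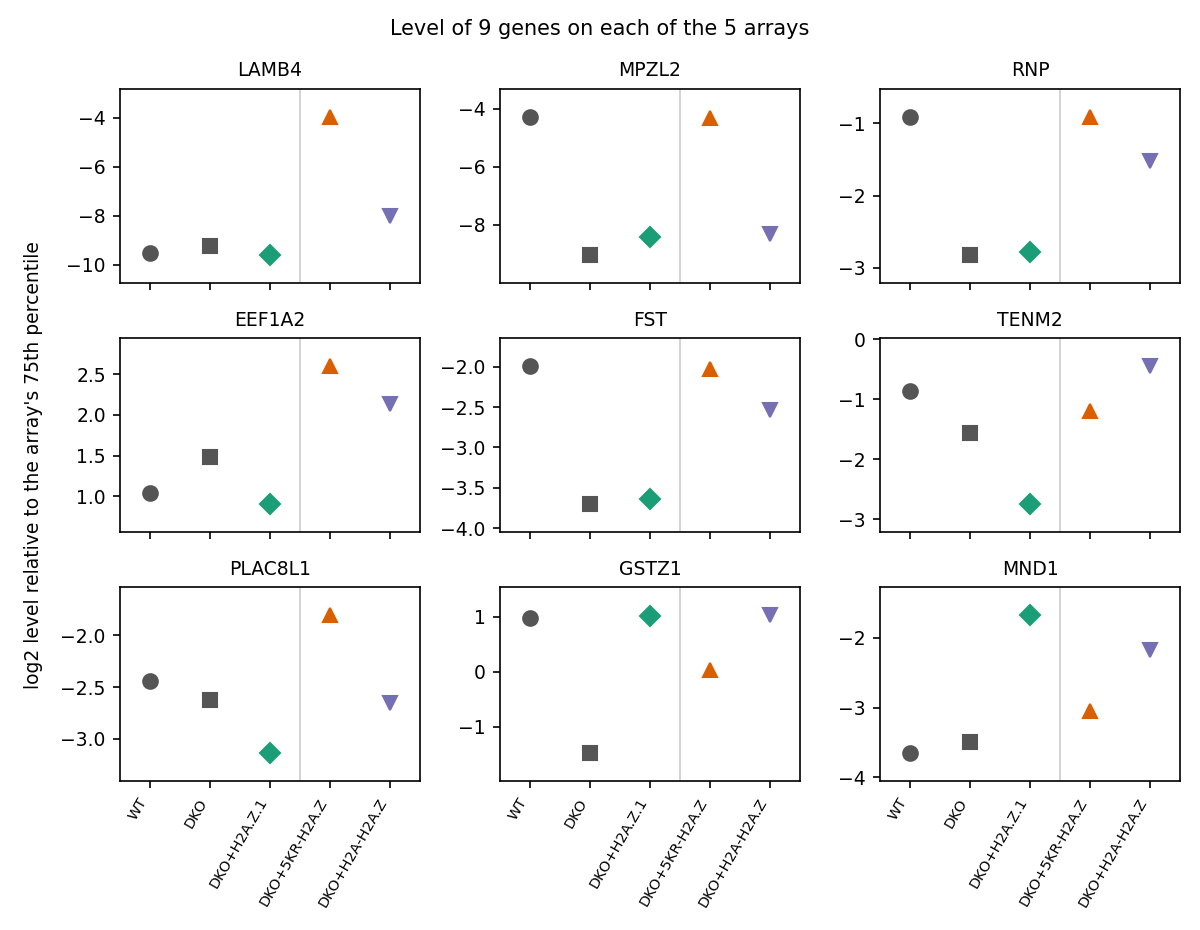
Each panel shows 1 gene with an official symbol that was at least 2-fold apart in all 7 alternatives; points give its log2 level on each array (y axis, scale set per panel), and the vertical line parts slide 1 from slide 2. The 5KR line lies at the level of WT for MPZL2, RNP and FST, above all other arrays for LAMB4, EEF1A2 and PLAC8L1, and between DKO and the other arrays for GSTZ1.

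Fewer genes were lower than higher in the 5KR line in the main scaling, and the 2 that stayed past 2-fold in all alternatives act in recombination and in amino acid breakdown. MND1, a partner of the meiotic strand-exchange machinery, stood at -3.66 in WT, -3.50 in DKO, -1.67 in the H2A.Z.1 line, -3.06 in the 5KR line and -2.18 in the H2A-H2A.Z line, a difference of -1.38. Its level was highest in the H2A.Z.1 line and lowest in WT. GSTZ1, an isomerase of tyrosine catabolism, stood at 0.98 in WT, -1.49 in DKO, 1.03 in the H2A.Z.1 line, 0.02 in the 5KR line and 1.03 in the H2A-H2A.Z line. WT, the H2A.Z.1 line and the H2A-H2A.Z line were level with each other, and the 5KR line lay about midway to DKO. Both probes of GSTZ1 were past 2-fold, at -1.08 and -1.001.

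PLOD1, a lysyl hydroxylase of collagen, showed a similar order, with -1.01 in WT, -3.42 in DKO, -1.21 in the H2A.Z.1 line, -2.42 in the 5KR line and -0.40 in the H2A-H2A.Z line. Its difference was -1.21 (-0.75 with normexp). DTWD2, which modifies transfer RNA, differed by -1.08 (-0.75 with normexp), with -2.82 in WT, -4.41 in DKO, -2.83 in the H2A.Z.1 line, -3.91 in the 5KR line and -2.49 in the H2A-H2A.Z line. STIM1, the calcium sensor of the endoplasmic reticulum that opens store-operated channels, is outside the naming rule and was chosen after its values were seen. It stood at 1.35 in WT, -0.68 in DKO, 1.36 in the H2A.Z.1 line, 0.46 in the 5KR line and 1.53 in the H2A-H2A.Z line, a difference of -0.90 (-1.12 with normexp), with a second probe at -1.53. In PLOD1, DTWD2 and STIM1 alike, DKO was the lowest array and the 5KR line the second lowest.

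LMO2, an adaptor of blood-forming transcription factor complexes, differed by -1.27 (-0.49 with normexp). It was lowest in the 5KR line, at -5.50, against -1.94 in WT, -3.80 in DKO, -4.23 in the H2A.Z.1 line and -3.20 in the H2A-H2A.Z line. Of 11 erythroid and thrombocyte markers compared, 9 of them in the dimmest signal bin, LMO2 was the only 1 past 2-fold lower. HBA1 was the only 1 past 2-fold higher, at 1.82 (0.73 with normexp). The median of the 11 was 0.08, with 6 above 0 and 5 below. SMCO4 differed by -1.22 in the probe read and -1.20 in its second. CRABP1, a retinoic acid carrier, differed by -1.30, and IL10RB, a receptor chain for interleukin 10, by -1.22, and with normexp they stood at -0.41 and -0.31. Among genes not well above background in the 5KR line, CNR1, a cannabinoid receptor, was at least 4.26-fold lower (-0.48 on the log2 scale with normexp), but the median over its probes had the opposite sign, at 0.776. RUNX1T1 was at least 2.26-fold lower, AQP4, a water channel, at least 2.15-fold, RARRES2, the attractant chemerin, at least 2.11-fold, and EPHX2, an epoxide hydrolase, at least 2.06-fold. With normexp these 4 stood at -0.35, -0.40, -0.21 and -0.12, all under 2-fold. In AQP4, RARRES2 and RUNX1T1 the H2A.Z.1 line's array was the highest of the 5. Of the 34 lower genes, 10 had both arrays well above background at the probe read.

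Genes whose signal was lower in DKO than in WT were shifted downward in the 5KR line relative to the H2A.Z.1 line. These gene sets were read from the WT and DKO arrays, which the comparison does not use, and were defined after earlier results of these data were known. Of the 4277 genes also well above background in WT or DKO, 426 (9.96%) were lower in DKO than in WT by 2-fold or more and 167 (3.9%) were higher. The 426 lower genes had a median difference of -0.195 between the 5KR line and the H2A.Z.1 line, against 0.085 for all genes. Of them 302 (70.9%) lay below 0, against 34.7% of all genes. The 167 higher genes had a median of 0.179, and 128 (76.6%) lay above 0, against 65.3% of all genes. The shift was small per gene, and the middle 50% ran from -0.427 to 0.048. Of the 426, 10 were lower by 2-fold or more (2.35%) and 16 higher (3.76%). The shares were 0.784% and 1.87% of all genes, and 2.95% and 6.64% of the dimmest signal bin, which held 197 of the 426. These counts are therefore not read as a trait of the set.

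The shift of the lower genes was there at every level of signal. In bins from dimmest to brightest their median was -0.211, -0.209, -0.110 and -0.170, over 197, 156, 58 and 15 genes, while that of all genes was 0.179, 0.003, 0.062 and 0.131. Restricted to the 364 genes well above background on all 5 arrays, the median was -0.183 and 71.7% lay below 0. With a threshold of 3-fold between DKO and WT the median of 230 lower genes was -0.273, and with 1.5-fold that of 687 genes was -0.136. A harder threshold thus gave a lower median.

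The H2A-H2A.Z line, on the same slide as the 5KR line, had the opposite sign in these sets. Its median difference from the H2A.Z.1 line was 0.191 for the 426 lower genes and -0.192 for the 167 higher genes, against 0.040 for all genes. Both differences use the H2A.Z.1 line's array. Taken directly between the lines on slide 2, the 5KR line minus the H2A-H2A.Z line had a median of -0.338 over the lower genes and 0.365 over the higher genes, against 0.052 for all. For the lower genes the 5KR line minus DKO had a median of 1.11, and DKO minus the H2A.Z.1 line a median of -1.24. These 2 medians use the DKO array, whose low signal defined the set. Their sign and part of their size can follow from that choice, so they do not measure a return of expression. Relative to all genes the medians of the lower and higher genes were -0.280 and 0.094 and kept their signs in all settings run, but with scaling to spike-in probes the higher genes too had a median below 0. No such set can be made without the DKO array, whose labels conflict.

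**Figure D4:**
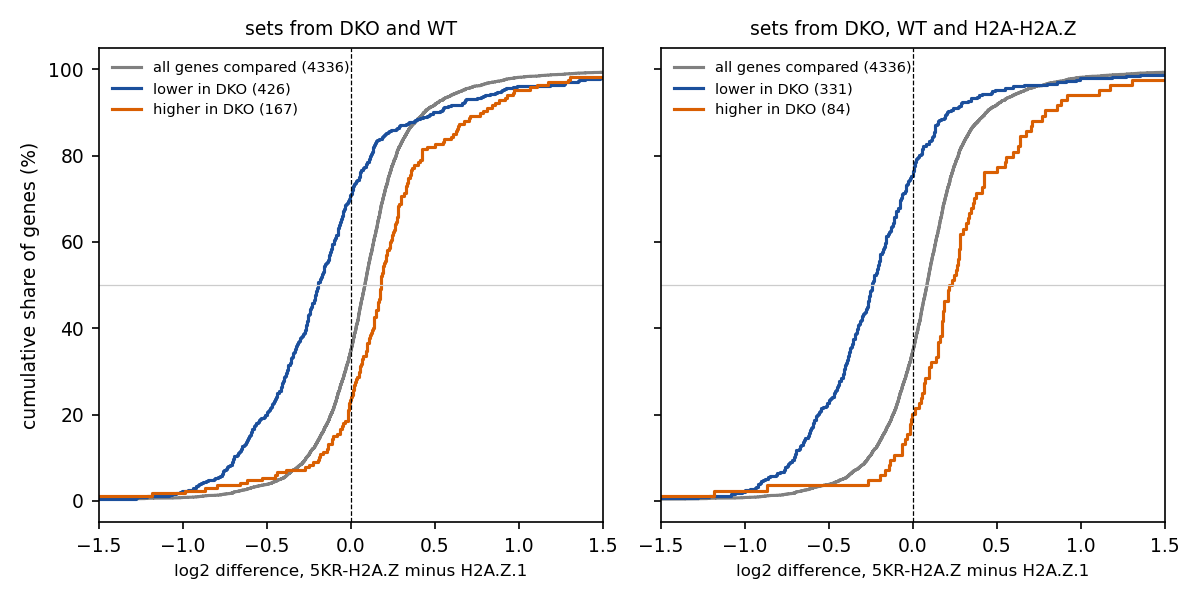
Curves give the cumulative percent of genes (y axis) up to each log2 difference between the 5KR line and the H2A.Z.1 line (x axis, cut at 1.5 on either side) for all 4336 genes and for genes that were lower or higher in DKO by 2-fold or more, against WT (left) or against both WT and the H2A-H2A.Z line (right). The curve of the lower genes lies left of that of all genes over most of its length, with medians of -0.195 and -0.244 against 0.085, and that of the higher genes lies right of it, with medians of 0.179 and 0.224.

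Genes lower in DKO than in both WT and the H2A-H2A.Z line numbered 331 of 4277 (7.74%), and this set again uses neither array of the comparison. Their median was -0.244, with 252 (76.1%) below 0. At a threshold of 3-fold 156 genes had a median of -0.343, with 84.6% below 0. The genes higher in DKO than in both numbered 84 (1.96%), with a median of 0.224 and 79.8% above 0. At 3-fold, 24 of them had a median of 0.553 with 91.7% above 0. Of the 34 genes at least 2-fold lower in the 5KR line, 10 (29.4%) were in the set lower in DKO than in WT. Of the 81 that were higher, 16 (19.8%) were. The set made up 9.96% of the 4277 genes, but 197 of the 1084 genes of the dimmest signal bin. That bin held 32 of the 34 and 72 of the 81, so these shares are not read as a result about the set.

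The genes furthest below WT and the H2A-H2A.Z line in DKO show how far the lines differed gene by gene. That DKO stood below those arrays follows from this choice of genes. SLC11A2, an iron and manganese transporter, stood at -2.43 in WT, -6.13 in DKO, -2.98 in the H2A.Z.1 line, -2.97 in the 5KR line and -2.65 in the H2A-H2A.Z line, so the H2A.Z.1 and 5KR lines were level. EPM2A, the glycogen phosphatase laforin, stood at -0.59 in WT, -3.84 in DKO, -1.21 in the H2A.Z.1 line, -2.14 in the 5KR line and -0.29 in the H2A-H2A.Z line. Its difference was -0.94 and its second probe gave -1.29, so the 5KR line lay between DKO and the rest. CC2D2A, which acts at the base of cilia, likewise had the 5KR line between DKO and the rest, with -1.17 in WT, -4.55 in DKO, -1.44 in the H2A.Z.1 line, -2.19 in the 5KR line and -1.53 in the H2A-H2A.Z line, a difference of -0.75.

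RAB11B, a small GTPase of recycling endosomes, stood at 0.33 in WT, -2.39 in DKO, 0.25 in the H2A.Z.1 line, -0.35 in the 5KR line and 0.62 in the H2A-H2A.Z line, a difference of -0.60. PREPL, a serine hydrolase, differed by -0.64, RGS18, a regulator of G protein signalling in blood cells, by -0.56, and NME5, a gene of ciliated cells, by -0.43. TMC7 differed by -0.40 with all 3 of its probes between -0.51 and -0.40. GBGT1, a glycolipid glycosyltransferase, differed by -0.37, JMJD7, a protein hydroxylase, by -0.29, and NCF4, a subunit of the phagocyte oxidase, by -0.23. MAVS, the adaptor of RNA sensing at mitochondria, differed by -0.72 in the probe read, while its 4 detected probes ran from -0.72 to 0.09. Of the 12 genes named from this set, 11 were lower in the 5KR line than in the H2A.Z.1 line, SLC11A2 being the exception. In the whole set 76.1% lay below 0, and 84.6% at a threshold of 3-fold, so the 11 add little to the set itself. With normexp NCF4 was level, at -0.008.

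Genes furthest above WT and the H2A-H2A.Z line in DKO were chosen in the same way, so the place of DKO above those arrays follows from the choice. Among them the membrane protein of late endosomes LITAF is one example. It stood at 0.03 in WT, 5.61 in DKO, 4.59 in the H2A.Z.1 line, 5.09 in the 5KR line and 3.09 in the H2A-H2A.Z line, so the 5KR line was nearest to DKO. ENPP2, the secreted lysophospholipase autotaxin, stood at -2.02 in WT, 0.25 in DKO, -2.09 in the H2A.Z.1 line, -1.38 in the 5KR line and -2.65 in the H2A-H2A.Z line, a difference of 0.70. PSPH, the last enzyme of serine synthesis, differed by 0.34, CDH11, a cadherin, by 0.55 with a second probe at -0.28, and CD200, an inhibitory surface ligand, by 0.18. FABP5, a fatty acid carrier, differed by 0.64 but stood higher in the H2A.Z.1 and 5KR lines, at -1.80 and -1.16, than in DKO at -2.70. NAV3 went the other way, at -0.87.

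Genes that handle H2A.Z and histone acetylation were close to level. None of the members compared was 2-fold apart among 7 replacement histone variants, 18 genes of H2A.Z exchange complexes and histone chaperones, 13 histone acetyltransferase genes, 18 deacetylase and sirtuin genes, 7 bromodomain and YEATS readers and 20 Polycomb and DNA methylation genes. Their medians were 0.14, 0.08, 0.03, 0.01, 0.05 and 0.08, against 0.085 for all genes. Of all genes only 2.65% were 2-fold apart, and few of those lay outside the dimmest signal bin. Most members of each of these lists lay outside that bin, so counts of 0 are near the share of all genes. The same holds for the lists below that had no member past 2-fold. In the exchange and chaperone list, ACTR6, a subunit of the SRCAP complex, differed by 0.22, INO80 by 0.29, and ANP32E, a chaperone that removes H2A.Z, by 0.00. The members furthest below 0, named here after their values were seen, were TADA2A, an adaptor of acetyltransferase complexes, at -0.59, HDAC4 at -0.50 and SIRT5 at -0.46. All 3 had been lower in DKO than in WT: TADA2A stood at 2.71 in WT, 1.01 in DKO, 2.61 in the H2A.Z.1 line, 2.01 in the 5KR line and 2.98 in the H2A-H2A.Z line.

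DNA repair genes included 40 compared, none past 2-fold, with a median of -0.07 and 24 below 0, where 34.7% of all genes were. Relative to all genes the median stayed negative in all scaling, background, value-table and probe-choice settings, from -0.187 to -0.110. Of the 40, 17 fell in the second dimmest signal bin, in which all genes had a median of 0.003. For the 5KR line minus the H2A-H2A.Z line the list had a median of 0.011, against 0.052 for all genes. NBN, a subunit of the MRN complex that senses broken ends, was the lowest. It stood at -1.21 in WT, -3.64 in DKO, -0.77 in the H2A.Z.1 line, -1.45 in the 5KR line and -0.58 in the H2A-H2A.Z line, a difference of -0.68. FANCC, of the Fanconi core complex, differed by -0.47, BRCA2, of homologous recombination, by -0.42 with a second probe at -0.16, and DCLRE1C, the nuclease Artemis, by -0.42. NBN, FANCC and DCLRE1C also belong to the set lower in DKO than in WT, so they are not separate from the shift of that set. At the other end DDB2, which finds ultraviolet damage, differed by 0.97 (1.03 with normexp) with a second probe at 0.37. DDB2 belongs to the same set and went against the direction of its shift.

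Genes of cell division were near the median of all genes. Of 39 genes of G1/S and DNA replication none was past 2-fold, with a median of 0.05, and of 34 genes of mitosis 1 was, with a median of 0.10. That gene was CENPK, of the constitutive centromere network, at 1.40 from a single dim probe (0.80 with normexp). PCNA, the replication clamp, differed by 0.28 and MCM3, of the replicative helicase, by 0.38, and CDKN1A, a cell-cycle inhibitor, by 0.53.

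B cell genes kept their levels within 2-fold in all 24 members compared, with a median of 0.17 and 19 above 0. PAX5, the master regulator of B cell identity, differed by -0.25 and CXCR4, a chemokine receptor, by 0.33. The largest differences were those of TNFSF13B, the survival factor BAFF, at 0.91, with its 5 probes from 0.16 to 0.91, and of IL21R at 0.87. Antigen receptor and NF-kB genes had a median of 0.07 over 25 members and none past 2-fold, STIM1 being the lowest, with NFKB1 at -0.45 and NFKBIA, the inhibitor of NF-kB, at 0.50.

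All 42 ribosomal protein genes compared lay above 0, between 0.02 and 0.36 with a median of 0.15. Relative to the median of all genes theirs ran from -0.051 to 0.103 over the settings, so its sign turned with the scaling. Oxidative phosphorylation genes had a median of 0.19 over 23 members, 20 of them above 0, and none was past 2-fold. Every member of both groups fell in the brightest of the 4 signal bins, where all genes had a median of 0.131.

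The list of basement membrane, collagen and matrix genes had the highest median, 0.55 over the 30 of its 84 members compared. Of the 30, 6 were past 2-fold higher in measured signal in the 5KR line and none lower, where 1.87% of all genes and 6.64% of the dimmest signal bin were higher. A further 17 members were named on the array but well above background in neither line. The 6 were LAMB4, AGRN, MATN3, COL4A1, POSTN and FBLN1, each read from a single detected probe. LAMB4, AGRN, MATN3 and FBLN1 were below background in the H2A.Z.1 line, so a member could enter the comparison through the 5KR line alone. MATN3 was at least 1.66-fold higher and FBLN1 at least 2.07-fold, so the bound of MATN3 is under 2-fold. COL4A1, a chain of basement membrane collagen, differed by 1.16 (0.51 with normexp, and 0.22 in the alternative with its smallest difference). POSTN, the matrix protein periostin, differed by 1.13 (0.32 with normexp). Of the 30, 25 fell in the dimmest signal bin, in which all genes had a median of 0.179.

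Members of the lists of other lineages were also mostly dim, with 9 of 13 myeloid markers and 35 of 42 developmental transcription factors in the dimmest bin. The counts of their members past 2-fold are read against the 1.87% of all genes and 6.64% of that bin that were higher. Of the members named on the array, 13 of 18 and 42 of 82 were compared. All genes of the dimmest bin had a median of 0.179. Myeloid markers had a median of 0.34 over 13 members, and 3 were past 2-fold higher: IL18, an inflammatory cytokine, at 1.39, CEBPA, a myeloid transcription factor, at 1.28, and CSF3R, the G-CSF receptor, at least 2.30-fold higher. Of 6 defining myeloid markers 5 were named, 3 were detected in the 5KR line and 2 in the H2A.Z.1 line. The summed level of 4 of them was -2.74 in WT, -3.49 in DKO, -4.18 in the H2A.Z.1 line, -3.27 in the 5KR line and -3.10 in the H2A-H2A.Z line. The H2A.Z.1 line was the lowest array, and MARCO was not well above background in either line compared. The part of these markers in the differences was not tested. Developmental transcription factors had a median of 0.34 over 42 members with 2 past 2-fold, the muscle regulators MYF5, at least 2.09-fold higher, and MYOG, at least 2.07-fold, a share no higher than that of the dimmest bin. Immediate early genes, 3 of 11 of them in the dimmest bin, had a median of 0.40 with FOSL2, given above, and FOS, at 1.11, past 2-fold, the second probe of FOS standing at -0.04. IL18, CEBPA, CSF3R, MYF5, MYOG, FOSL2 and FOS were all under 2-fold with normexp. CSF3R, MYF5, MYOG and FOSL2 were not well above background in the H2A.Z.1 line. They entered the comparison through the 5KR line alone, so the filter itself favours such members being higher there.

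Among 28 apoptosis genes 14 lay above 0 and 14 below, with a median of 0.01. TNFRSF10B, a death receptor, was at 1.04 but under 2-fold in all alternative scalings, background corrections, value tables and probe choices (0.58 with normexp), and BCL2A1, a survival protein of the BCL2 family, was at least 1.11-fold lower, with -6.74 in the H2A.Z.1 line and -8.55, below background, in the 5KR line, a difference of -0.02 with normexp. CASP6, an executioner caspase, differed by -0.45 and MDM2, the ligase that removes p53, by -0.65. TGFB2, a growth factor outside the list that was chosen after its values were seen, was lowest in the 5KR line, at -0.11 against 0.52 in WT and 0.73 to 0.81 on the other arrays, with all 3 probes between -0.88 and -0.83.

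Of 18 cilium and centrosome genes 12 lay below 0, where 34.7% of all genes did, with a median of -0.06 and none past 2-fold. Of the 18, 9 fell in the second dimmest signal bin, in which all genes had a median of 0.003. BBS5, a subunit of the BBSome, which carries proteins into cilia, differed by -0.81 and its second probe by -0.88. It stood at -0.80 in WT, -1.82 in DKO, -0.40 in the H2A.Z.1 line, -1.21 in the 5KR line and -0.67 in the H2A-H2A.Z line. BBS5 also belongs to the set lower in DKO than in WT, so it is not separate from the shift of that set.

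**Figure D5:**
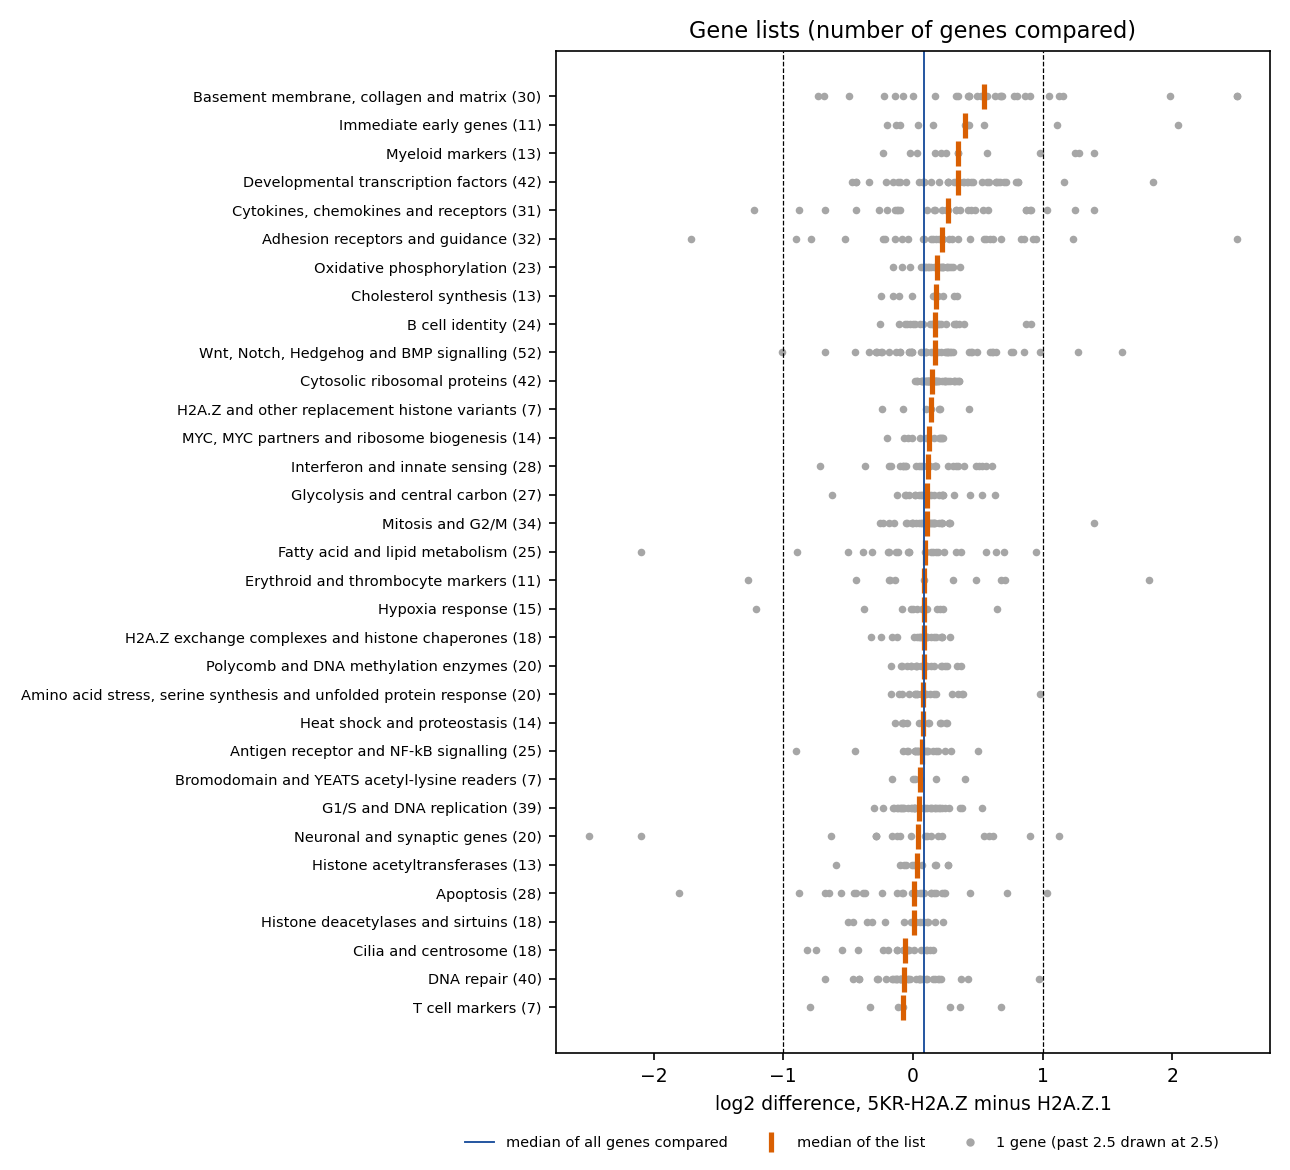
Grey points are genes of each list (rows, with the number compared) at their log2 difference between the 5KR line and the H2A.Z.1 line (x axis), orange bars the list medians, the blue line the median of all genes (0.085) and dashed lines 2-fold. Matrix genes stand furthest right, with a median of 0.55, and the medians of most lists lie close to the blue line.

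The genes apart from the H2A.Z.1 line were also read against the H2A-H2A.Z line, which shared the slide of the 5KR line. Between these lines 164 of 4360 genes (3.76%) were at least 2-fold apart. Of the 81 genes that were higher in the 5KR line than in the H2A.Z.1 line, 27 were also at least 2-fold higher than in the H2A-H2A.Z line, and of the 34 lower genes 16 were at least 2-fold lower. Both comparisons use the 5KR line's array. LAMB4, MPZL2, CHAT and GHRHR were far higher in measured signal than in either line: GHRHR stood at -5.27 in the 5KR line and between -9.46 and -9.07 on the other arrays. None of these genes was well above background in the H2A.Z.1 line, so the folds against it are the bounds given above. With normexp CHAT and GHRHR differed from the H2A.Z.1 line by 0.86 and 0.78, under 2-fold. GSTZ1 was lower in the 5KR line than in the H2A.Z.1 line and the H2A-H2A.Z line, at -1.001 and -1.01. EEF1A2, FST and RNP were less than 2-fold apart from the H2A-H2A.Z line, at 0.47, 0.50 and 0.61, and TENM2 was lower than in that line, at -0.75. Among the 81 higher genes the 5KR line was the highest of the 5 arrays for 54, and the H2A.Z.1 line the lowest for 57. Among the 34 lower genes the 5KR line was the lowest for 10, and the H2A.Z.1 line the highest for 19. The genes were called on these arrays, so either can often be the extreme, and a call is not a trait of the 5KR line alone.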

How the data were processed

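RNA came from 5 DT40 cultures, and 100 ng was labelled with cyanine 3, per the labels' protocols. The deposited scanner files give an intensity per spot, processed by Agilent Feature Extraction 11.5.1.1 with background subtraction, together with quality flags, as the file headers give them. In the table of values from the authors the deposited intensity is multiplied by 1 constant per array, 1.031 for the H2A.Z.1 line and 1.135 for the 5KR line. It is neither logarithmic nor centred, and column medians run from 92.1 to 121.7. How that constant was set is not stated in these sources.

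Log2 of the processed intensity minus the array's 75th percentile over non-control spots was used, without 5 and 15 marked spots, and spots of a probe were averaged. RefSeq accessions without versions matched 11935 of 43603 probes to a GRCg7b gene table. The files use galGal3, so no coordinates are given. A gene was read from its probe with the highest mean over the 5 arrays.

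With 1 array per group no test was made. The threshold was 2-fold. The comparison, gene lists and sets were chosen with earlier results of these data known. The naming rule took the 15 largest measured differences and 6 largest bounds in each direction, up to 20 genes apart in all alternatives, up to 8 per direction with every detected probe past 2-fold, up to 4 members per list, and H2AFZ, and a part of these is printed; some are not reported here. Normexp, planned on the mean spot signal, was run on median spot and background intensity. Scripts were tested on simulated data with noise that was small against the spread of dim genes here. That test checked the counting of known changes and does not check the calls above. R 4.3.3, limma 3.58.1, Python 3.11.15, numpy 2.4.6 and pandas 2.3.3 were used.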

Additional observations from a re-analysis of the deposited data

Results flagged for a closer look

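The gene sets that parted DKO from WT stood out because the lines on slide 2 lay on opposite sides of the H2A.Z.1 line. Over the genes lower in DKO than in WT, the median difference was -0.195 for the 5KR line and 0.191 for the H2A-H2A.Z line. Over the genes higher in DKO than in WT it was 0.179 and -0.192. With 1 array per line the difference between the lines was not tested, and both medians use the H2A.Z.1 line's array.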

How the results depend on the processing

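In the main setting 115 genes were at least 2-fold apart (81 higher, 34 lower). With normexp 17 genes were apart (14 and 3), which included 13 of the 81 and 2 of the 34. The count was 57 when both arrays had to be well above background (47 and 10) and 45 at 3-fold (28 and 17). It was 228 with no filter on dim probes (169 and 59) and 410 at 1.5-fold (274 and 136). The 1088 probes became 123, 446, 473, 2314 and 3367 in the same settings. Other settings kept the gene count between 108 and 121, but the split moved to 66 and 42 with quantile normalization, 65 and 46 with cyclic loess and 51 and 70 with scaling to spike-in probes. The gene sets and their checks were chosen after the data were seen. Genes lower in DKO than in WT had a median of -0.280 relative to all genes, and -0.183 with normexp. Those lower than in both WT and the H2A-H2A.Z line had -0.328, and -0.230 with normexp. For the genes higher in DKO the relative medians were 0.094 and 0.140, and they stayed above 0 in all settings run. Of the called genes named in the text, CNR1 turned its sign, to 0.776 with the median over its probes, and no other did in these settings. The cause of these changes was not tested. Dim signal limits the precision of most differences past 2-fold. No paired analysis was possible because each line has 1 array.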
